A study of Mus musculus with 4 samples.

Results

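The 10 genes described here, Pde3b, Pde4a, Pde4b, Pde4d, Pde7a, Adora2a, Adora2b, Entpd1, Nt5e and Ada, encode enzymes that break down cAMP and proteins that make, sense or remove extracellular adenosine. They were taken by symbol from the 55367 gene rows of each count table, and all 10 had a row. Per the labels, cells of B16-F10 tumors, grown from a melanoma line of the mouse, had been sorted for CD45.2 and CD8, and their polyadenylated RNA was sequenced in 2 libraries labeled WT and 2 labeled KO. The series names WT mice and mice in which floxed Satb1 was deleted with ThPOK-cre or with E8I-cre. The study's methods describe its mice in general as young adults of both sexes. Which Cre stood behind the KO label, the age and sex behind each library, and whether animals were pooled were not given in the labels. ThPOK-cre is known to act in the CD4 lineage and E8I-cre in mature CD8+ cells. Nothing in the labels says that the libraries of a group came from separate animals, so p-values here measure the spread between libraries.

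Cyclic AMP is made by adenylyl cyclases when a Gs-coupled receptor is engaged, and it restrains activation of T cells through protein kinase A. Phosphodiesterases hydrolyze cAMP and so end the signal. In tumors, extracellular ATP is cut by CD39 (encoded by Entpd1) and then by CD73 (encoded by Nt5e) to adenosine, which raises cAMP through the receptors encoded by Adora2a and Adora2b, and which adenosine deaminase (Ada) converts to inosine. Regulatory T cells are known to carry CD39 and CD73, and FOXP3 is known to repress Pde3b in them.

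The libraries held 4017875 and 4261025 counts on genes in the group labeled WT and 4479734 and 5382915 in the group labeled KO. Levels are given as CPM, counts scaled to a total of 1000000 on gene rows, in which a count of 3 was worth 0.557 to 0.747 CPM. Satb1, the target of the knockout, had 7 and 5 counts in the WT-labeled pair against 131 and 55 in the KO-labeled pair (log2 fold change 3.36, SE 0.79, edgeR adjusted p = 0.115), opposite to the label. It reached the filter on low counts (2.29 CPM in 2 libraries) only through the KO-labeled pair, so a higher level there was a condition of its being tested. Per 100 counts on Cd3e, Cd3d and Cd3g, which mark T cells, Satb1 had 6.03 and 2.78 against 4.07 and 2.82, which overlapped. A loss of Satb1 did not show at the level of the gene on either scale. With 7 and 5 counts in the WT-labeled pair, these values cannot decide whether Satb1 was lost. Directions here follow the titles as deposited, whose assignment was not tested. The 10 T cell markers, among them Cd8a with 24 and 28 against 843 and 733 counts, were all higher in both KO-labeled libraries, and they held 0.00757% and 0.0121% of the gene counts in WT 1 and WT 2, against 0.252% and 0.132% in KO 1 and KO 2. The 8 macrophage or monocyte markers, among them Csf1r, held more in every library than the T cell markers, with 1.75% and 2.17% against 0.537% and 1.36%. These values go against the label of a CD8 sort, so a level here is that of the whole library and not of CD8+ cells. The 7 melanoma markers took 0.0217% and 0.0254% against 0.232% and 0.125%, and the 6 fibroblast or endothelium markers 0.00207% and 0.00192% against 0.136% and 0.0198%. The 4 regulatory T cell markers took 0.00411% and 0.00521% against 0.0177% and 0.0103%. Of these, 3 were higher in both KO-labeled libraries and 1 was lower, which was Foxp3 with 146 and 156 counts against 120 and 132. Other genes overlap 31.5% of the exonic bases of Foxp3, and what this did to its counts was not tested. The 7 dendritic cell markers took 0.00996% and 0.0156% against 0.0413% and 0.0403%, but of the 5 tested 3 had a positive and 2 a negative log2 fold change. Xist had 435 and 216 counts against 0 and 3, and Ddx3y 0 and 0 against 188 and 81, so that sex and group cannot be told apart. In a bulk library, a larger share of cells of a type and more RNA per cell cannot be told apart either.

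By CPM, 5 of the 10 genes (Pde3b, Pde4b, Pde4d, Adora2a and Nt5e) had both KO-labeled libraries above both WT-labeled ones, as did 35.9% of the 11837 genes tested, and 0 had both below, against 12.6% of the genes tested. Pde4a, Pde7a, Adora2b, Entpd1 and Ada overlapped between the groups. The differences did not pass the test. In the edgeR quasi-likelihood fit over all genes, with Benjamini-Hochberg adjustment, 0 of the 10 genes passed the threshold of 0.05, as against 0.574% of the genes tested (0.549% higher and 0.0253% lower in KO). Nt5e, Pde4d and Pde3b, all higher in KO, were the 3 with an unadjusted p below 0.05, a level that 13.7% of the genes tested reached and 9.44% reached in that direction. A positive log2 fold change was found for 7 of the 10 genes and for 52.6% of the genes tested. The median log2 fold change of the 10 genes was 0.62, beside 0.05 for all genes tested. Scaled to counts on the CD3 genes, which mark T cells, the log2 fold changes of Pde3b, Pde4b, Pde7a, Adora2a and Adora2b turned negative, and scaled to macrophage or monocyte markers those of Pde4a, Entpd1 and Ada turned positive. These scalings shifted nearly all genes, with a median log2 fold change over all genes tested of -3.43 (2.1% positive) and 1.73 (97.7% positive). The genes Pde3b, Pde4d and Nt5e reached the filter on low counts (2.29 CPM in 2 libraries) only with the KO-labeled pair. For Pde4d and Nt5e, with 0 WT-labeled libraries at that level, a higher level in KO was a condition of being tested, and Pde3b had 1 such library. The summed shares of T cell, regulatory T cell, dendritic cell, melanoma and fibroblast or endothelium markers were higher in the same libraries. The part of any of these lists in the values of the 10 genes was not tested.

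The call depended on the model and on single libraries, and outside the scalings to a cell type it involved Nt5e, Pde4d and Pde3b only. Of the 10 genes, 2 (Nt5e and Pde4d) passed with DESeq2, which called 3.51% of the genes tested, and the same 2 with the replicate number as a block, which called 1.82%. Nt5e, Pde4d and Pde3b passed with the likelihood ratio test (4.7% of the genes tested), with every gene with a count tested (2.74%), without KO 2 (9.72%) and with the replicate block crossed (5.47%). Nt5e alone passed with plain library totals (1.15%) and without WT 1 (0.862%). None of the 10 passed with upper-quartile factors (0.507%), relative log expression factors (0.549%), a CPM filter (0.453%) or counts thinned to the smallest library (0.739%), nor without WT 2 (1.73%) or without KO 1 (0.998%).

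**Figure D1:**
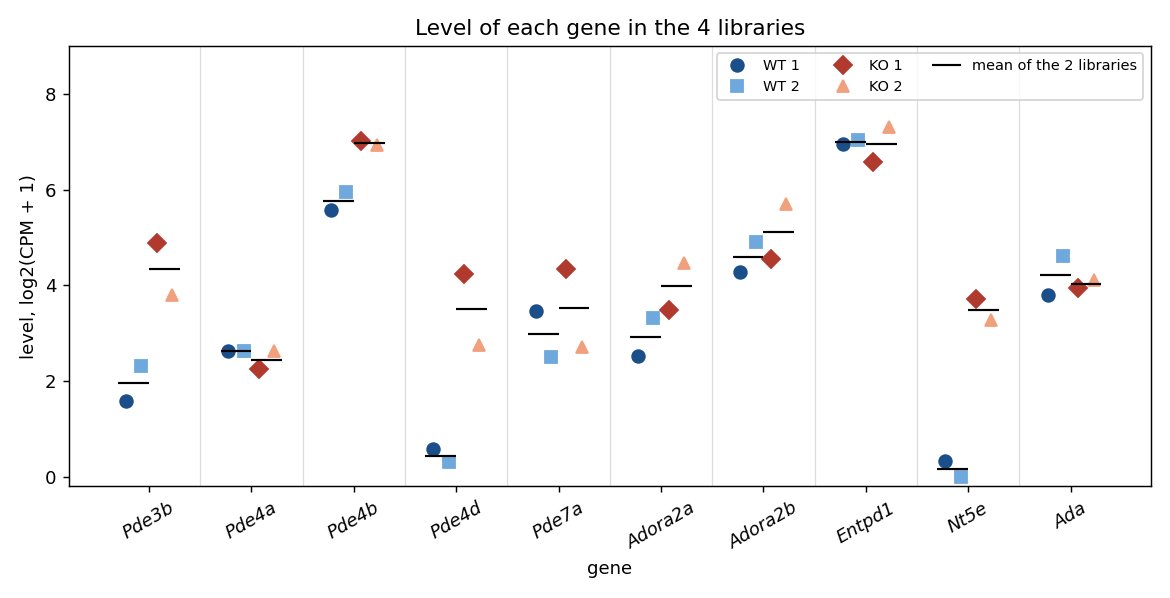
Level of each of the 10 genes as log2(CPM + 1) in the 4 libraries, with black lines at the mean of the 2 libraries of a group. For Pde3b, Pde4b, Pde4d, Adora2a and Nt5e both points labeled KO lie above both WT-labeled ones, and for the other genes the groups overlap. Relative to CD3 counts Pde3b, Pde4b and Adora2a lie in the opposite order.

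Among the phosphodiesterases, Pde3b (chromosome 7, 114415281 to 114539251, plus strand of GRCm38/mm10) encodes an enzyme that hydrolyzes cAMP and is inhibited by cGMP. It had 8 and 17 counts in the WT-labeled pair and 128 and 69 in the KO-labeled pair, which in CPM was 1.99 and 3.99 against 28.6 and 12.8. The lower library labeled KO thus stood above the higher one labeled WT, and KO 1 stood well above KO 2. The means were 2.99 ± 1.41 CPM (SD, n = 2) and 20.7 ± 11.1 CPM (SD, n = 2). The log2 fold change was 2.44 (SE 0.68, edgeR adjusted p = 0.175, 0.00991 to 0.858 over the alternatives). Over the fits that left out 1 library it ranged from 1.84 to 2.84, and scaled to CD3 counts it was -1.13.

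The PDE4 enzymes are specific for cAMP and are the targets of rolipram. Pde4d (chromosome 13, 108449948 to 109953461, plus strand) had 2 and 1 counts in WT 1 and WT 2 and 80 and 31 in KO 1 and KO 2. Both WT-labeled libraries were thus at or under 3 counts. With 3 counts in all in the WT-labeled pair and 111 in the KO-labeled pair, the pooled ratio was 31.1 (exact Poisson 95% interval 10.4 to 153, counting error only). The edgeR adjusted p was 0.103 (0.00153 to 0.483 over the alternatives). The log2 fold change of Pde4d was 4.55, and over the fits that left out 1 library it ranged from 3.62 to 5.17.

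Pde4b (chromosome 4, 102087543 to 102607259, plus strand), a PDE4 enzyme linked to activation of lymphocytes and macrophages, was the most abundant of the 5 phosphodiesterases in every library, also per kilobase of exon. It had 186 and 259 counts in the WT-labeled pair and 572 and 655 in the KO-labeled pair, or 46.3, 60.8, 128 and 122 CPM (WT 1, WT 2, KO 1, KO 2). The libraries of a group lay close together and the groups did not overlap. The log2 fold change was 0.89 (SE 0.41, edgeR adjusted p = 0.377), and it was -2.57 scaled to CD3 counts.

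Pde4a (chromosome 9, 21165714 to 21213248, plus strand) had 5.23 and 5.16 CPM in the WT-labeled pair and 3.79 and 5.20 in the KO-labeled pair. KO 1 was the lowest and KO 2 lay between the values labeled WT, and the log2 fold change was -0.53 (SE 0.75, edgeR adjusted p = 0.791). Pde7a (chromosome 3, 19223108 to 19311322, minus strand), which encodes a cAMP-specific enzyme of T cells, had 9.96 and 4.69 CPM in the WT-labeled pair and 19.2 and 5.57 in the KO-labeled pair. WT 1 and KO 1 were the higher libraries of their groups, and the direction turned with single libraries, from a log2 fold change of 0.35 (SE 0.76) to -0.69 without KO 1 and -0.23 without WT 2. Pde7a is the only one of the 10 genes whose exons overlap another gene, Gm16093 on the other strand, over 0.620% of their bases.

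Promoter sequences were examined for the cAMP response element, the site bound by CREB, since PDE4 genes are known to be induced by cAMP. RefSeq start sites (GRCm38.p6) gave 13 windows of 250 bases before a start site for 7 of the 10 genes, and Pde3b, Pde7a and Adora2a had none in the table used. The full element TGACGTCA, which reads the same on both strands, was in 0 of the 13 windows and in 1.55% of all 32851 windows. Its half-site TGACG, searched on both strands as TGACG and CGTCA, was in 4 of the 13 windows, of Entpd1, Pde4a and Pde4b, and in 17.8% of all windows. The 2 windows with a half-site that hold no annotated exon are shown, from chr19:40659520-40659769 and chr9:21183851-21184100, both on the plus strand, with the half-site in capitals, 183 and 50 bases before the start site. A window of Pde4b, the most abundant phosphodiesterase, from chr4:102569810-102570059 on the plus strand, is shown beside them and holds none. A match describes the letters only and says nothing on binding.
Entpd1: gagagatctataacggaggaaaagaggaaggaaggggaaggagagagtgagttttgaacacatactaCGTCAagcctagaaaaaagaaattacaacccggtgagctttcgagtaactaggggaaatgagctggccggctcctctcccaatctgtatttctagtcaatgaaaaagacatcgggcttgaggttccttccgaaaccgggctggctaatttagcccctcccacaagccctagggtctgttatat
Pde4a: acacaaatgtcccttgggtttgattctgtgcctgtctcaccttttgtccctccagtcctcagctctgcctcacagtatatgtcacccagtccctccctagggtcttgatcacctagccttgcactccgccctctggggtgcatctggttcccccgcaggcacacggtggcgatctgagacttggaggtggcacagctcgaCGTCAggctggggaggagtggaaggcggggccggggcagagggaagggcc
Pde4b: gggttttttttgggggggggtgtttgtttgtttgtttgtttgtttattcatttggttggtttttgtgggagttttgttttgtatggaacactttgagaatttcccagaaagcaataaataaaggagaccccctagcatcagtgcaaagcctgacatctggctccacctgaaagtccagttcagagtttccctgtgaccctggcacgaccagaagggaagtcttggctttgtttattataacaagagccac

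The make-up of the phosphodiesterase counts within a library does not depend on any scaling between libraries. Of the summed counts on the 5 genes, Pde4b took most in every library, with 72.4% and 81.2% in WT 1 and WT 2 and 64.8% and 80.6% in KO 1 and KO 2. Pde3b took 3.11% (exact Clopper-Pearson 95% interval 1.35 to 6.04) and 5.33% (3.13 to 8.40) in the WT-labeled pair, against 14.5% (12.2 to 17.0) and 8.49% (6.66 to 10.6) in the KO-labeled pair. The shares of Pde3b did not overlap between the groups, but the intervals of WT 2 and KO 2 did. Pde4d took 0.778% (0.0944 to 2.78) and 0.313% (0.00794 to 1.73), on 2 and 1 counts, against 9.06% and 3.81% (2.61 to 5.37 in KO 2). The intervals of Pde4d in WT 1 and KO 2 overlapped. Pde4a went the other way, with 8.17% and 6.90% against 1.93% and 3.44%. Its intervals in WT 2 (4.37 to 10.3) and KO 2 (2.30 to 4.94) overlapped. The CPM of Pde4a overlapped between the groups, and a share falls when the other genes of the sum rise. Pde7a overlapped, with 15.6% and 6.27% against 9.74% and 3.69%. Thus both KO-labeled libraries had a larger part of Pde3b and Pde4d and a smaller part of Pde4a among these transcripts. The shares were not tested.

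**Figure D2:**
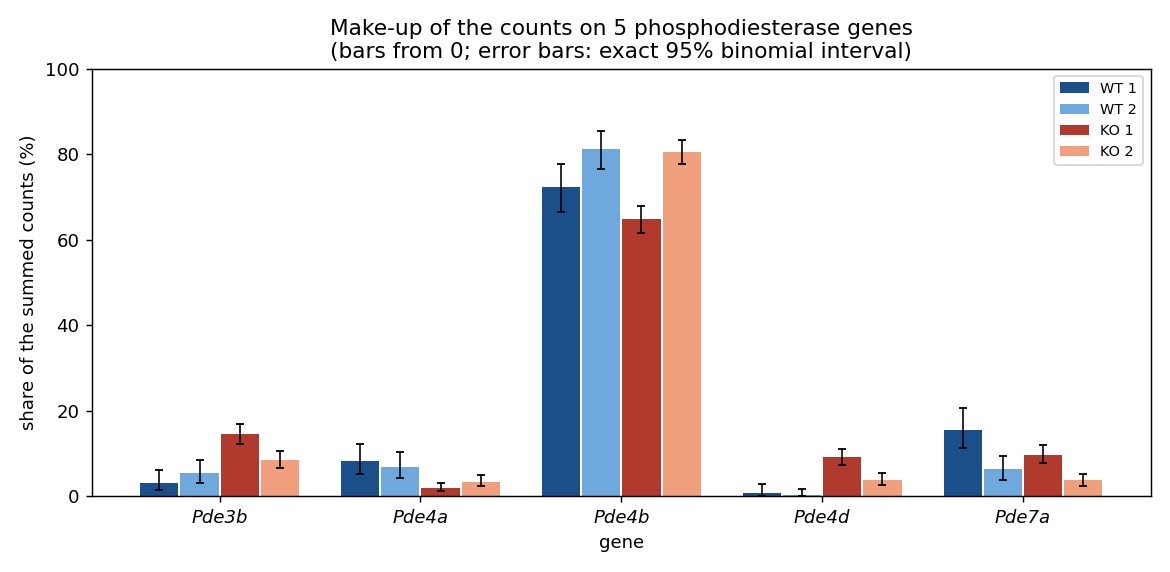
Share of the summed counts on Pde3b, Pde4a, Pde4b, Pde4d and Pde7a taken by each gene, in percent, in the 4 libraries, with bars from 0 and exact 95% binomial intervals that cover counting error only. Pde4b takes between 64.8% and 81.2% in every library, and Pde3b and Pde4d take larger shares in both KO-labeled libraries.

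The adenosine receptors are Gs-coupled and act through cAMP. Adora2a (chromosome 10, 75316877 to 75334784, plus strand), the high-affinity receptor through which adenosine restrains T cells, had 4.73 and 8.92 CPM in the WT-labeled pair and 10.3 and 21.2 in the KO-labeled pair. The groups did not overlap, but WT 2 and KO 1 were close to each other. The log2 fold change was 0.92 (SE 0.65, edgeR adjusted p = 0.557), and it went down to 0.17 when 1 library was left out and was -2.38 scaled to CD3 counts. Adora2b (chromosome 11, 62248984 to 62266453, plus strand), the low-affinity receptor found on myeloid cells, had 18.4 and 28.9 CPM against 22.3 and 50.9. The value of KO 1 lay between those labeled WT, and the log2 fold change of 0.34 (SE 0.54, edgeR adjusted p = 0.816) became -0.51 without KO 2.

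The 2 ectonucleotidases, which act in series, showed different patterns. Entpd1 (chromosome 19, 40612366 to 40741602, plus strand) had 495, 557, 423 and 849 counts, or 123, 131, 94.4 and 158 CPM (WT 1, WT 2, KO 1, KO 2). The libraries labeled KO stood on either side of those labeled WT, and the log2 fold change of -0.33 (SE 0.46, edgeR adjusted p = 0.789) became 0.04 without KO 1. Nt5e (chromosome 9, 88327197 to 88372092, plus strand) had 1 and 0 counts in the WT-labeled pair against 54 and 47 in the KO-labeled pair. The 1 count labeled WT and the 101 labeled KO gave a pooled ratio of 84.8 (exact Poisson 95% interval 14.9 to 3381, counting error only), with an edgeR adjusted p of 0.0700 that was 0.0258 without KO 2 (9.07e-05 to 0.148 over the alternatives). In KO 1 and KO 2 the level of Nt5e was 12.1 and 8.73 CPM. Thus RNA of the enzyme for the first step overlapped between the groups, while RNA of the enzyme for the second step was at or under the level of 3 counts in both libraries labeled WT.

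Ada (chromosome 2, 163726584 to 163750239, minus strand), which removes adenosine, had 12.9 and 23.5 CPM in the WT-labeled pair and 14.3 and 16.3 in the KO-labeled pair. Both libraries labeled KO lay inside the range of those labeled WT. The log2 fold change was -0.55 (SE 0.53, edgeR adjusted p = 0.678).

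Levels of different genes were compared as CPM per kilobase of exon. Entpd1 stood first and Adora2b second in every library, with 22.8 ± 0.953 (SD, n = 2) and 12.8 ± 4.0 (SD, n = 2) CPM per kilobase in the WT-labeled pair. In the KO-labeled pair they were at 22.6 ± 8.02 and 19.8 ± 11.0 (SD, n = 2), and their values overlapped. In KO 1 Adora2b and Pde4b were nearly equal, at 12.10 and 12.09 CPM per kilobase. Ada and Pde4b took the next places, with 9.09 ± 3.72 and 5.07 ± 0.970 (SD, n = 2) in the WT-labeled pair and 7.65 ± 0.728 and 11.8 ± 0.402 (SD, n = 2) in the KO-labeled pair. The order of Ada and Pde4b thus differed between the groups, in both libraries of each. Adora2a came next in all 4 libraries, and Pde3b, Pde4a, Pde4d, Pde7a and Nt5e stood below it, at up to 3.14 CPM per kilobase (Pde3b in KO 1).

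Because the KO-labeled pair held more T cell RNA, each gene was also set against the summed counts on Cd3e, Cd3d and Cd3g, which encode the CD3 chains of the T cell receptor. These counts were 116 and 180 in WT 1 and WT 2 and 3220 and 1950 in KO 1 and KO 2. Per 100 CD3 counts, Pde3b had 6.90 and 9.44 in the WT-labeled pair and 3.98 and 3.54 in the KO-labeled pair, which turned its direction. Of the 10 genes, 8 were lower per CD3 count in both KO-labeled libraries, as were 94.2% of the genes tested. Pde4d overlapped, with 1.72 and 0.556 against 2.48 and 1.59. Nt5e was the gene above, with 0.862 and 0 against 1.68 and 2.41 per 100 CD3 counts, where 1.06% of the genes tested were above in both. A level of 3 counts corresponded to 2.59 and 1.67 per 100 CD3 counts in WT 1 and WT 2, where Nt5e had 1 and 0 counts, so this order rests on few counts. In the edgeR fit scaled to CD3 counts, 7 of the 10 genes (all but Pde3b, Pde4d and Nt5e) passed the threshold and all 7 were lower in KO. There 91.5% of the genes tested passed, 91.2% with a lower level in KO, and the median log2 fold change of all genes was -3.43. The log2 fold changes of Pde3b, Pde4d and Nt5e in that fit were -1.13, 0.94 and 2.50 (edgeR adjusted p of 0.199, 0.483 and 0.148).

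**Figure D3:**
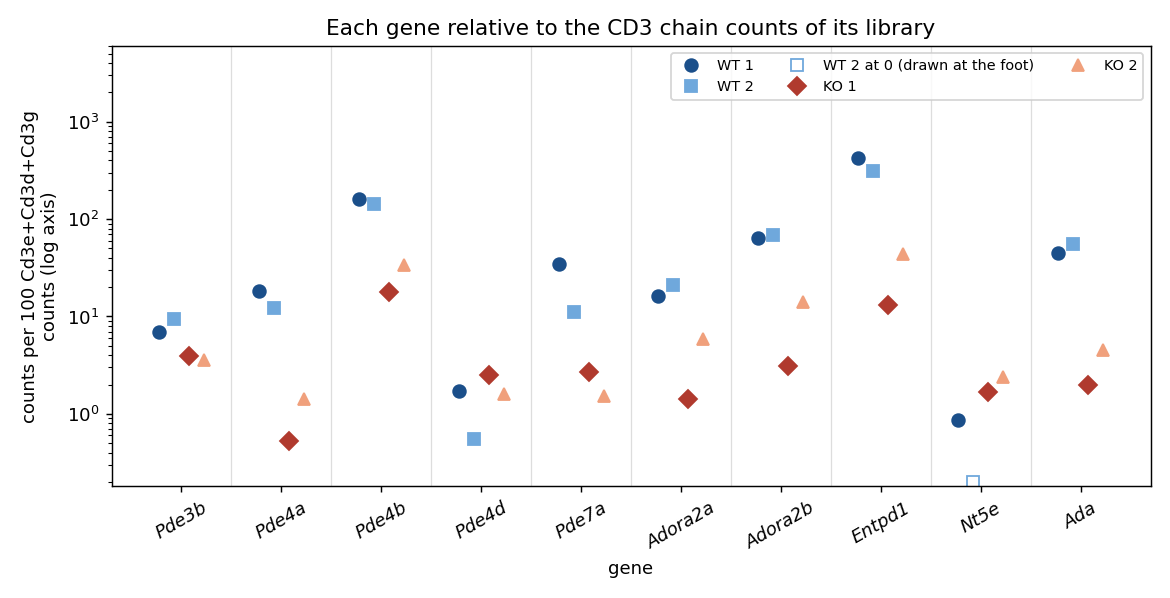
Counts of each gene per 100 counts on Cd3e, Cd3d and Cd3g in the 4 libraries, on a log axis, with the value of 0 for Nt5e in WT 2 drawn as an open symbol at the foot. Pde3b lies between 3.54 and 3.98 in the KO-labeled pair and at 6.90 and 9.44 in those labeled WT, and Nt5e is the gene with both KO-labeled libraries above.

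The macrophage or monocyte markers took smaller shares in both KO-labeled libraries, and the part they play in the levels was not tested. Per 10000 counts on the 8 markers, Entpd1 had 70.6 and 60.4 in the WT-labeled pair and 176 and 116 in the KO-labeled pair. Adora2b had 10.5 and 13.3 against 41.5 and 37.4, and Pde4b had 26.5 and 28.1 against 238 and 89.4. With the libraries scaled to these counts, all 10 genes had a positive log2 fold change and Nt5e, Pde4d, Pde3b and Pde4b passed the threshold, where 13.9% of the genes tested passed and the median of all genes tested was 1.73.

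**Figure D4:**
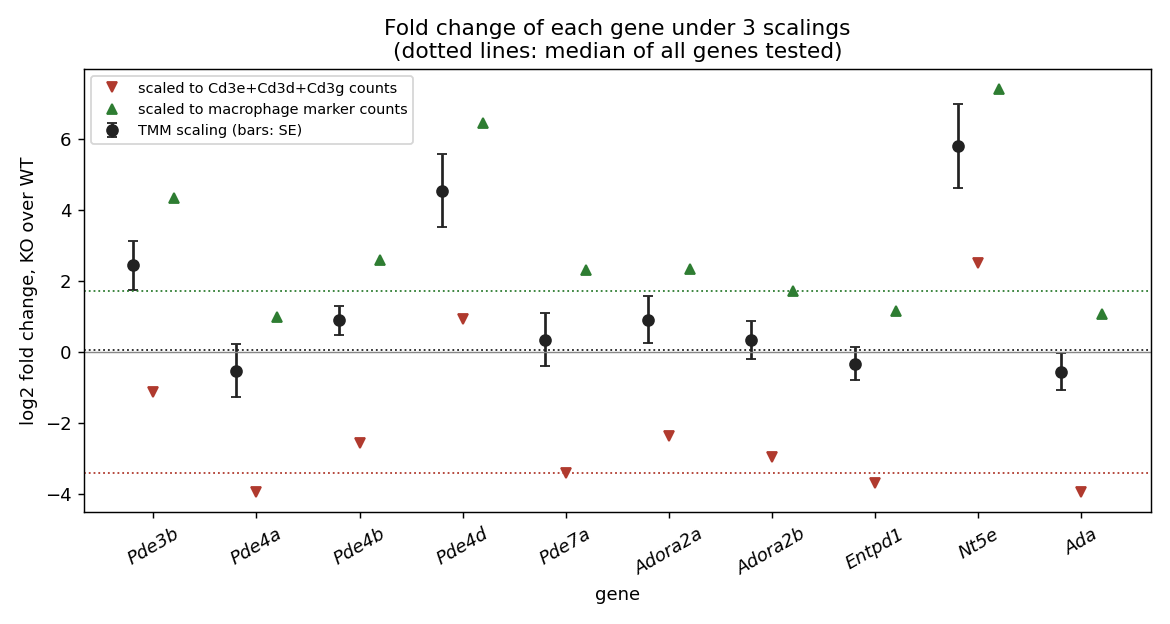
Log2 fold change of KO over WT for each of the 10 genes from edgeR, with libraries scaled by TMM (black, bars are the SE), by counts on the CD3 genes (red) and by counts on macrophage or monocyte markers (green), and dotted lines at the median of all genes tested. Pde4d and Nt5e are above 0 under the 3 scalings, but both reached the filter on low counts only through the KO-labeled pair. Relative to CD3 counts their edgeR adjusted p was 0.483 and 0.148. Pde3b is at 2.44 with TMM and at -1.13 relative to CD3 counts.

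The rest of the pathway was followed in 8 lists with 75 genes, of which 47 passed the filter on low counts. Of the 47, 0 passed the threshold in the edgeR test, and 3 higher and 4 lower in KO had an unadjusted p below 0.05, where 9.44% of all genes tested were higher and 4.23% lower at that level. The 3 higher ones were Dpp4, Crem and P2ry10, of which Dpp4 and P2ry10 were named after their values were seen. Dpp4, which encodes CD26, a peptidase of the T cell surface, had 2 and 5 counts in the WT-labeled pair and 114 and 59 in the KO-labeled pair (log2 fold change 4.05, SE 0.82, edgeR adjusted p = 0.0694). It reached the filter on low counts only through the KO-labeled pair, so a higher level there was a condition of its being tested. Crem, which encodes a CREB family factor with a cAMP-inducible repressor form, had 72 and 137 counts against 1480 and 449 (log2 fold change 2.69, SE 0.64, edgeR adjusted p = 0.121). P2ry10, a receptor gene of lymphocytes, had 2 and 20 counts against 289 and 111. At 0.498 CPM, WT 1 was under the filter level of 2.29 CPM, so P2ry10 reached the filter only with the KO-labeled libraries. In each of these the groups did not overlap and KO 1 was the highest library, as it was for the summed markers of T cells, regulatory T cells, dendritic cells, melanoma and fibroblasts or endothelium, whose part in these values was not tested.

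In the list of cAMP synthesis, 5 of 10 genes were tested, 2 with a positive and 3 with a negative log2 fold change. Of all genes tested, 52.6% were positive. Gnas, the Gs alpha subunit, had 976 and 1296 counts in the WT-labeled pair and 3283 and 2267 in the KO-labeled pair (log2 fold change 0.73, SE 0.47), and genes on the other strand overlap 22.0% of its exonic bases. Adcy7, the main adenylyl cyclase of blood cells, had 202 and 380 counts against 293 and 536 (log2 fold change -0.05, SE 0.46), and Adcy3 had 5 and 31 against 42 and 59, with 22.1% of its exonic bases overlapped by Cenpo on the other strand. Among the other Gs-coupled receptors the prostaglandin E2 receptor genes Ptger4 and Ptger2 had log2 fold changes of 0.32 and 0.82. In that list 4 of the 5 tested were positive, against 52.6% of all genes tested. Among the effectors, Prkar1a and Prkaca, subunits of protein kinase A, had log2 fold changes of -0.02 and 0.13. Pkig, which encodes an inhibitor of that kinase, had 381 and 501 counts against 232 and 366 (log2 fold change -1.14, SE 0.43, edgeR adjusted p = 0.288). In the list of CREB factors, the coactivator gene Crtc2 and the CREB family gene Atf1 had -0.06 and -0.16.

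Of the other cAMP phosphodiesterases 4 of 11 were tested and 3 of these had a negative log2 fold change, where 52.6% of all genes tested were positive. Pde8a had 0.12, Pde7b -1.01 and Pde1b -1.22. Both KO-labeled libraries were below both WT-labeled ones for Pde7b and Pde1b, as for 12.6% of all genes tested. Beside Entpd1 and Nt5e, 3 of 9 further ectoenzymes of nucleotides were tested, Bst1 at -0.44, Cd38 at -0.21 and Enpp1 at -0.81, and all 3 overlapped between the groups. In the list of adenosine handling, Pnp, the next enzyme after Ada, had 1218 and 1027 counts against 954 and 434 (log2 fold change -1.27, SE 0.53, edgeR adjusted p = 0.340), and other genes overlap 21.9% of its exonic bases. The nucleoside transporter genes Slc29a3 and Slc28a2 had -0.75 and -1.02. Of the receptors for ATP and other nucleotides, P2ry6, P2rx7 and P2rx4 had log2 fold changes of -1.24, -1.24 and -0.87. These 3 had both KO-labeled libraries below both WT-labeled ones, where 12.6% of all genes tested did. Of the 9 tested in that list, 3 were positive, against 52.6% of all genes tested. Both KO-labeled libraries were above for 2, P2ry10 and P2ry12 (the latter named after its values were seen), against 35.9% of all genes tested. P2ry6, P2rx7 and P2rx4 are known from macrophages, and 4 of the 8 macrophage or monocyte markers were also lower in both KO-labeled libraries, against 12.6% of the genes tested, while 1 was higher in both and 3 overlapped. Their part in these values was not tested.

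**Figure D5:**
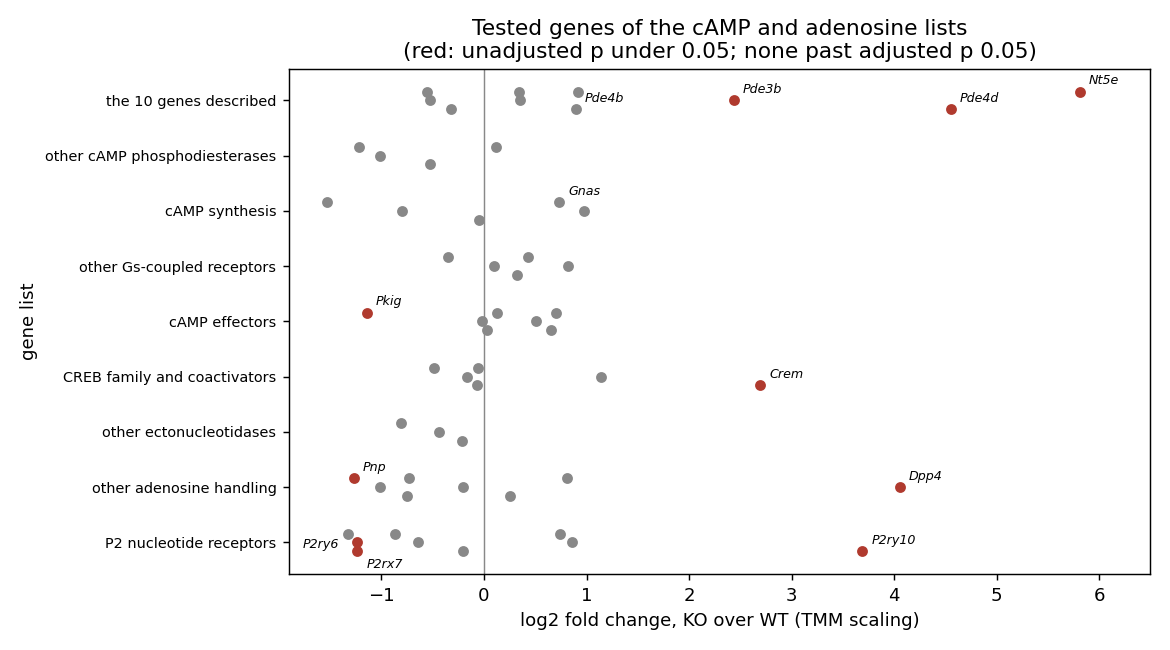
Log2 fold change of KO over WT (TMM scaling) for the tested genes of the 10 described and of the 8 lists of the cAMP and adenosine pathway, 1 point a gene, with red for an unadjusted p under 0.05. Nt5e at 5.81, Pde4d at 4.55, Dpp4 at 4.05 and P2ry10 at 3.69 lie farthest to the right (Nt5e is at 4.07 and Pde4d at 3.66 with a prior count of 2), and none of the genes passed the threshold after adjustment.

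The genes whose pattern was most like that of Pde3b were found by the root mean square difference of centered log2(CPM + 1) over the 4 libraries. The nearest were Aspm, a mitotic spindle gene, Septin7, a cytoskeletal GTPase, and Gli3, a transcription factor of Hedgehog signaling, at 0.0651, 0.0663 and 0.0742. Aspm had 2, 6, 62 and 28 counts (WT 1, WT 2, KO 1, KO 2), and Septin7 had 84, 150, 1075 and 550. Gli3 had 0, 2, 36 and 19. The 1 added to the CPM compresses such low values, and the fitted log2 fold change was 4.12 for Gli3 beside 2.44 for Pde3b. Of the other 9 genes described, Pde4d was nearest to Pde3b, at 0.508, then Nt5e at 0.649 and Pde4b at 0.700. With 4 libraries, many genes can share such a pattern.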

How the data were processed

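RNA-seq was done by the authors on 4 libraries of tumor cells labeled as sorted. The deposited values were whole-number read counts per gene symbol, not normalized, 1 table per library. Per the labels and the study's methods, the authors aligned reads with HISAT2 2.1.0 to mm10 and counted them with HTSeq 0.11.0. The annotation and the strand setting were not given in the sources used here, so reads of overlapping genes cannot be told apart by strand. Reads on genes made up 20.5% to 28.8% of all reads in a table, and the 5 rows that name no gene held the rest and entered neither the library totals nor any test.

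Groups and replicate numbers came from the library titles. Differences were tested with edgeR 4.0.16 under R 4.3.3, with filterByExpr (at least 10 counts after scaling, 15 in total), TMM factors, and the quasi-likelihood F test of KO against WT with group as the only term, two-sided, adjusted by Benjamini-Hochberg over 11837 genes with a threshold of 0.05. The SE of a log2 fold change was computed from its size and the root of F, and the prior count was 0.125. CPM used the plain totals of gene rows. The script was tested on simulated data. Intervals at the 95% level and the level of 3 counts cover counting error only. Positions, exon lengths and overlaps were from GENCODE M21 (GRCm38), which held 96.4% of the symbols, and promoter windows from RefSeq (GRCm38.p6), limited to 250 bases before the start site. The genes and pathway lists were chosen with earlier results of these data known. Genes named were the 10 described, Satb1, the CD3 genes, the 3 with the highest mean CPM of each list and any gene of a list past the threshold, and the 3 nearest to Pde3b by pattern; any other was named after its values were seen. Of the genes this rule names, 1 is not reported here. Alternatives were other scalings and filters, DESeq2 1.42.0, the likelihood ratio test, a replicate block, thinning, a prior count of 2, shares per exon length and leaving out each library. Scaling to macrophage or monocyte markers and a crossed block were added after seeing the data.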

Additional observations from a re-analysis of the deposited data

How the results depend on the processing

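Of the 10 genes, 0 passed the edgeR threshold with TMM scaling, and the same held with upper-quartile or relative log expression factors, with a CPM filter and with thinned counts. The number that passed was 1 with plain totals (136 genes of all tested), 2 with DESeq2 (416, of which 350 were higher and 66 lower), 3 with the likelihood ratio test (556), 3 with every gene with a count tested (583), 7 relative to CD3 counts (10831, of which 36 were higher and 10795 lower) and, added after seeing the data, 4 relative to macrophage or monocyte markers (1648), against 68 of all genes with TMM (65 higher and 3 lower). Plain totals moved the median log2 fold change of all genes from 0.05 to 0.38. A positive log2 fold change was held by 7 of the 10 with TMM (52.6% of the genes tested), 2 relative to CD3 counts (2.1%) and 10 relative to macrophage or monocyte markers (97.7%), so these scalings shifted nearly all genes. Relative to CD3 counts the direction turned for Pde3b (-1.13), Pde4b (-2.57), Pde7a (-3.41), Adora2a (-2.38) and Adora2b (-2.95), and relative to macrophage or monocyte markers for Pde4a (1.0), Entpd1 (1.15) and Ada (1.07). These 2 scalings differ from TMM by construction, and the cause of the other moves was not tested.

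Leaving out 1 library gave 0 to 3 of the 10 genes and 113 to 1249 of all genes. Without KO 2 the 3 were Nt5e, Pde4d and Pde3b, and without WT 1 Nt5e passed. The all-gene counts were 113 without WT 1, 228 without WT 2, 123 without KO 1 and 1249 without KO 2. Positive values were held by 6 to 7 of the 10. Log2 fold changes ranged from -0.69 to 1.04 for Pde7a, from -0.51 to 0.85 for Adora2b and from -0.87 to 0.042 for Entpd1, and the other 7 genes kept their sign. The highest value for Nt5e, 8.52 without WT 1, depends on the prior count, since WT 2 had 0 counts. Where a group was left with 1 library, that library was assumed to vary like the others.

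The labels number the libraries 1 and 2 in each group, and nothing says that a number marks a shared animal or day. The deviations of WT 1 and KO 1 from their group means had a correlation of -0.18 over 11837 genes. With the replicate number as a block, 2 of the 10 genes and 215 of all genes passed. With the pairing crossed, added after seeing the data, 3 and 647 passed. Counts of 0 to 17 in the libraries labeled WT limit what can be said of Pde3b, Pde4d and Nt5e.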
